A study of Mus musculus with 24 samples.

Results

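Elastic fibre genes were examined in whole mouse liver after a high-fat diet (FFD) or a control diet. They were chosen by symbol as 10 genes that encode elastin, 2 fibrillins, 5 fibulins and 2 microfibril-associated glycoproteins, and all 10 were found among the 56205 genes of the count table. C57BL/6J mice, 8 to 10 weeks old at the start, received for 20 weeks either FFD, which holds palm oil, fructose and cholesterol, or the control diet. The labels name no genetic change in either group, and each gave 12 libraries of poly(A)-selected RNA from whole liver. The design text gives 6 mice per diet and sex, but the labels do not give the sex of a library. Each library held 14468418 to 22112552 counts on genes.

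Elastic fibres give recoil to arteries, lung, skin and the portal tracts and capsule of the liver. They are built from a core of crosslinked elastin on a scaffold of fibrillin microfibrils. Fibulins link the core to the scaffold, lysyl oxidases crosslink it, and microfibrils also hold latent TGF-beta in the matrix. In liver, portal fibroblasts, vascular smooth muscle, mesothelial cells and activated stellate cells are known sources of these proteins, and elastic fibres accumulate in scars as fibrosis advances.

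The short fibulins Efemp2, Fbln5 and Efemp1 are close relatives. Efemp2 and Fbln5 were called higher on FFD, by 1.44 (SE 0.19) and 0.87 (SE 0.20) on the log2 scale. Efemp1 had 0.57 (SE 0.18) and was not called, and no test compared it with Fbln5. To show what lies in front of each gene, the 250 bases before a RefSeq transcription start are printed 5′ to 3′ on the gene's strand (GRCm38.p6). Of the 3 starts listed for Efemp2 and the 2 for Fbln5, the one nearest to the GENCODE M21 start was taken. Capitals mark the GC box (GGGCGG or its reverse complement CCGCCC) and a loose AP-1 pattern (TGANTCA, with any base at N). The windows are chr11:28852955-28853204 on the + strand for Efemp1, chr19:5473696-5473945 on the + strand for Efemp2 and chr12:101819120-101819369 on the - strand for Fbln5.
Efemp1: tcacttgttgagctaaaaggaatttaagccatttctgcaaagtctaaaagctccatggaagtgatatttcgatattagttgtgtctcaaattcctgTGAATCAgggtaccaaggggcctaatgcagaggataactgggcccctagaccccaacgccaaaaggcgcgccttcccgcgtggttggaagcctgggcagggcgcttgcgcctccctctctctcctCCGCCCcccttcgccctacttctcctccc
Efemp2: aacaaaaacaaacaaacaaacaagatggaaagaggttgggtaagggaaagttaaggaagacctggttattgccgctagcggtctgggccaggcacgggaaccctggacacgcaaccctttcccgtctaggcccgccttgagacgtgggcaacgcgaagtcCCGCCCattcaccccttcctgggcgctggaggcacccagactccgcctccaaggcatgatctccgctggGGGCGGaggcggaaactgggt
Fbln5: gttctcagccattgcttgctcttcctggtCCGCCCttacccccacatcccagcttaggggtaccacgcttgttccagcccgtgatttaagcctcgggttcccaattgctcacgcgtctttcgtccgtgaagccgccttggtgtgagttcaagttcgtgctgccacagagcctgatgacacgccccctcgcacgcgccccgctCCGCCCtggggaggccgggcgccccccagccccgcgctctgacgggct

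A GC box lay in all of these windows, at 29 bases before the start in Efemp1, at 90 and 21 in Efemp2 and at 221 and 48 in Fbln5. The GC box is common, being present on either strand in 32.7% of the 32851 promoter windows of this length in the RefSeq set. A match to the loose AP-1 pattern, TGAATCA, lay 154 bases before the start of Efemp1 and in neither of the other windows printed. The pattern was present in 6.75% of all windows. No TATAAA (12.4% of all windows) was found on either strand in the 6 members whose windows were read. Nor was GGAATG, the core of a TEAD site (12.6%), or TGTGGT, the core of a RUNX site (14%). The 6 members also include Fbn1, Fbln1 and Fbln2. Fbn2 was left out by name, and no window was read for Eln, Mfap4 or Mfap5. The Fbn1 and Fbln2 windows lie wholly within M21 exons, 1555 and 309 bases from the M21 start. GC content was 53.6% in Efemp1, 59.2% in Efemp2 and 65.2% in Fbln5, and the windows held 10, 15 and 21 CpG dinucleotides. These matches describe letters in a window and not bound sites.

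The elastic fibre genes were higher on FFD for most members. Of the 9 members that could be tested, 8 were called higher on FFD, 0 were called lower, and the log2 fold change was above 0 for 9. Calls were made with edgeR's quasi-likelihood test at an adjusted p of at most 0.01 (Benjamini-Hochberg over 17913 genes) and an absolute log2 fold change over 0.5. Among all genes tested, 13.2% were called higher and 4.99% lower by the same rule. The median log2 fold change of the 9 members was 1.46, against -0.03 over all genes tested. Mfap5 had 0 to 2 counts per library and was not tested. A gene was tested if 12 or more libraries held 1 count or more of it. Fbn2 passed this filter only through its FFD libraries, since 8 of the 12 control libraries had 0 counts, so its call carries little weight in the count of 8. With edgeR's default filter, which removed Fbn2, 7 of the 8 members tested were called higher, against 14.4% of all genes tested. Levels are given in CPM, which scales counts by the TMM-adjusted total of each library, and differences are log2 fold changes of FFD against control with their standard error (SE). In whole tissue, a change in the number of cells of a type and a change in RNA per cell cannot be told apart.

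**Figure D1:**
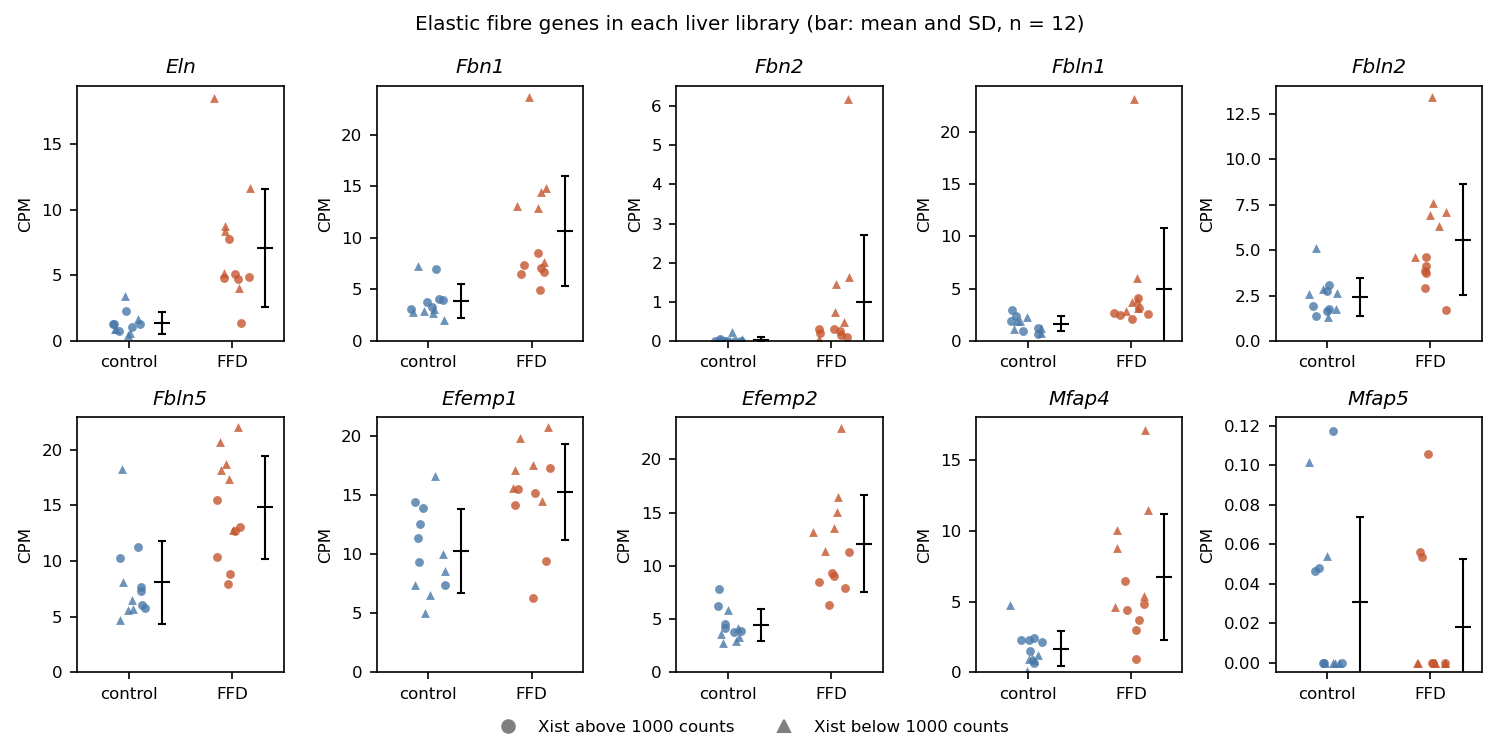
Level of each elastic fibre gene in CPM (vertical axis) in each of the 12 control and 12 FFD libraries, with the mean and SD of each diet. Circles are libraries with more than 1000 Xist counts and triangles are libraries with fewer. The highest FFD point is replicate 9 in 8 of the 9 panels of tested genes.

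Eln (ENSMUSG00000029675; chr5:134702593-134747323, - strand, GRCm38) encodes tropoelastin, the soluble monomer that is crosslinked into the elastic core. Its level ran from 0.487 to 3.46 CPM on the control diet (median 1.19) and from 1.39 to 18.6 CPM on FFD (median 5.12). Of the 12 FFD libraries, 11 lay above the highest control library, and only replicate 3 of the FFD libraries fell within the control range. On FFD the gene was higher by 2.39 on the log2 scale (SE 0.34, adjusted p = 7.32e-06, edgeR).

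Fbn1 (ENSMUSG00000027204; chr2:125300594-125507993, - strand) encodes fibrillin-1, the main protein of microfibrils in adult tissue. It ran from 2.04 to 7.25 CPM on the control diet (median 3.21) and from 4.96 to 23.6 CPM on FFD (median 8.09). All but 2 of the control libraries, 10 of 12, lay below the lowest FFD library. The difference was 1.46 (SE 0.24, adjusted p = 4.45e-05, edgeR).

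Fbn2 (ENSMUSG00000024598) encodes fibrillin-2, a microfibril protein made mainly during development. It was the rarest tested member: 8 of the 12 control libraries had 0 counts, and the 12 control libraries together had 7. The FFD libraries had 1 to 146 counts each (median 6) and 272 in all. The level reached 0.227 CPM at most on the control diet and 6.17 CPM on FFD (median 0.308). The rate of Fbn2 counts on FFD was 33.8 times that on the control diet (95% interval 16.2 to 84.7, Poisson, counting error only). The fitted difference was 4.69 (SE 0.83, adjusted p = 9.29e-05, edgeR) and depends on how a group near 0 is handled. Replicate 9 of FFD held 146 of the 272 counts. Without it, the ratio of rates was 17.3 (8.15 to 43.9) and the log2 fold change 3.78, still past the thresholds. Without control replicate 11, which held 4 of the 7 control counts, the ratio was 72.2 (24.5 to 353) and the log2 fold change 5.54.

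Fbln1 (ENSMUSG00000006369; chr15:85205949-85286535, + strand) encodes fibulin-1, which lies within elastic fibres and basement membranes. Its control libraries ran from 0.693 to 2.99 CPM (median 1.6) and its FFD libraries from 2.09 to 23.2 CPM (median 3.18). Replicate 9 stood far above the next FFD library, which had 6.05 CPM. Fbln1 was higher by 1.62 (SE 0.36, adjusted p = 0.00102, edgeR) and by 1.06 without that library, still past the thresholds. Fbln2 (ENSMUSG00000064080; chr6:91212455-91272540, + strand) encodes fibulin-2, which binds fibrillin-1 and tropoelastin. It had 1.32 to 5.10 CPM on the control diet (median 2.25) and 1.71 to 13.4 CPM on FFD (median 4.63). The groups overlapped more than for Fbln1, with 5 of 12 FFD libraries above the highest control library. Fbln2 was higher by 1.21 (SE 0.26, adjusted p = 0.000748, edgeR).

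Efemp2 (ENSMUSG00000024909; chr19:5473954-5482517, + strand) encodes fibulin-4, which brings lysyl oxidase to tropoelastin and is needed for fibre assembly. Its level was 2.76 to 7.80 CPM on the control diet (median 4.04) and 6.34 to 22.9 CPM on FFD (median 11.4). The groups were nearly separate, since 11 of 12 FFD libraries lay above every control library and 12 of 12 lay above the second-highest. Efemp2 was higher by 1.44 (SE 0.19, adjusted p = 4.17e-06, edgeR).

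Fbln5 (ENSMUSG00000021186; chr12:101746565-101819055, - strand) encodes fibulin-5, which binds tropoelastin and cell-surface integrins. It had 4.66 to 18.2 CPM on the control diet (median 6.93) and 7.92 to 22 CPM on FFD (median 14.3). Only 3 of 12 FFD libraries lay above the highest control library, replicate 11, and 9 lay above the second-highest. Fbln5 was higher by 0.87 (SE 0.20, adjusted p = 0.00139, edgeR).

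Efemp1 (ENSMUSG00000020467; chr11:28853204-28926743, + strand) encodes fibulin-3, a relative of fibulin-4 that is present in many basement membranes and elastic tissues. It had 4.99 to 16.6 CPM on the control diet (median 9.65) and 6.29 to 20.8 CPM on FFD (median 15.5). Its difference of 0.57 (SE 0.18) passed the fold threshold, but the adjusted p of 0.0148 (edgeR) did not pass. The ranges overlapped over most of their length, with 5 of 12 FFD libraries above the highest control library. Efemp1 passed both thresholds in 8 of the 34 other fits that used both of the library sets described below, among them DESeq2 (adjusted p = 0.00563) and the fit without control replicate 11.

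Mfap4 (ENSMUSG00000042436; chr11:61485431-61488900, + strand) encodes a fibrinogen-domain glycoprotein that binds fibrillin and elastin. It ran from 0.102 to 4.76 CPM on the control diet (median 1.37) and from 0.959 to 17.2 CPM on FFD (median 5.11). In 11 of 12 FFD libraries the level was above the second-highest control library, and in 7 above the highest. Mfap4 was higher by 1.98 (SE 0.39, adjusted p = 0.000281, edgeR). Mfap5 (ENSMUSG00000030116; chr6:122505845-122529290, + strand) encodes MAGP-2, a small glycoprotein of the microfibril. It had 4 counts in all FFD libraries together and 6 in all control libraries, so a difference was not detectable at this depth. With no filter on low counts its log2 fold change was -0.59 (p = 0.438, adjusted p = 0.57 over 26878 genes, edgeR).

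Some members share exon bases with a gene on the opposite strand in GENCODE M21, and the strand setting used to count the mouse reads was not given in the sources used here. The study's supplement names a strand-specific library kit for RNA sequencing without saying whether it made the mouse libraries. Efemp2 shares 173 bases with Mus81, which had 116 to 267 counts per library, and Mfap4 shares 89 bases with Mapk7, which had 20 to 197. Reads in these stretches can be told apart only if strand was kept and used in counting. Fbn1 shares 2442 bases with Gm9913, which had 0 to 5 counts, and Eln shares 267 bases with Gm30003, which had 0.

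The same few libraries set the ends of most ranges. FFD replicate 9 was the highest FFD library for 8 of the 9 tested members and replicate 10 for Fbln5. Control replicate 11 was the highest control library for 7 members. The summed level of 5 cholangiocyte markers (Krt7, Krt19, Epcam, Sox9 and Cldn4) was 171 CPM in FFD replicate 9, against 38.9 CPM in the next library and 4.78 to 14.7 CPM on the control diet. Its part in the levels of Fbn2 and Fbln1 in that library was not tested. Without replicate 9, the log2 fold change stayed past both thresholds for the 8 called members and was 2.17 for Eln, 1.31 for Fbn1 and 1.78 for Mfap4. With FFD replicate 9 and control replicate 11 both left out, a fit added after the data had been seen, 9 of 9 members were called.

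Markers of other cell types moved with the diet in several lists, read here against the 13.2% of all genes tested that were called higher and the 4.99% called lower. Of 10 portal fibroblast markers 5 were called higher (Cd34, Dpt, Entpd2, Dcn and Lum) and 0 lower, and Thy1, Gli1, Pi16, Clec3b and Gas1 were not called. The summed level of the 10 was 122 to 229 CPM on the control diet and 224 to 393 CPM on FFD. Dcn alone had a mean of 128 CPM on the control diet and 201 CPM on FFD. Of 7 tested markers of activated stellate cells or myofibroblasts 5 were called higher (Col1a1, Col1a2, Col3a1, Timp1 and Postn), with sums of 46.2 to 234 CPM and 217 to 662 CPM. Acta2 (log2 fold change 0.53) and Tagln (0.47) were not called. Dcn and Timp1 are also among the partners below, and Col1a1 is the collagen reference below. Of 10 stellate cell markers 5 were called higher (136 to 288 CPM and 244 to 364 CPM), and of 6 mesothelial markers 2 were (1.87 to 7.87 CPM and 3.88 to 12.7 CPM). Of 6 vascular smooth muscle markers 1 was called higher (48.7 to 115 CPM and 77.7 to 109 CPM), a share near that over all genes. Of 5 cholangiocyte markers 4 were called higher. Of 7 macrophage markers 4 were called higher (78.2 to 359 CPM and 185 to 576 CPM), and 1 of 5 sinusoidal, 1 of 5 vascular endothelial and 0 of 4 T cell markers were, also near the share over all genes. Of 5 hepatocyte markers, which check the labelled tissue, 4 were called lower and 1 higher, and their sum was 74150 to 122250 CPM on the control diet (median 89390) and 36217 to 87070 CPM on FFD (median 54638). No listed marker was at 0 in all libraries, and the part of these cell types in the elastic fibre values was not tested.

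Per kilobase of exon (GENCODE M21, all exons of a gene joined), Efemp1 was the most abundant member on both diets, at 5.03 ± 1.74 CPM per kb (SD, n = 12) on the control diet and 7.49 ± 1.98 on FFD. On the control diet, Fbln5 (1.17 ± 0.542), Efemp2 (1.17 ± 0.391) and Mfap4 (0.875 ± 0.637) followed within their spread. Fbln2 (0.378 ± 0.164), Fbln1 (0.373 ± 0.165) and Fbn1 (0.316 ± 0.135) came next and also did not differ beyond their spread. Eln was lower at 0.166 ± 0.102, and Fbn2 was at 0.00243 ± 0.00497. On FFD, Mfap4 (3.51 ± 2.32) and Efemp2 (3.19 ± 1.21) lay above Fbln5 (2.15 ± 0.668), within their spread. Eln (0.877 ± 0.557), Fbln2 (0.877 ± 0.481) and Fbn1 (0.876 ± 0.441) had nearly the same level on FFD. The sum over the 9 tested members was 9.48 ± 3.40 CPM per kb on the control diet and 20.2 ± 8.10 on FFD. These orders depend on the joined exon length, 2037 bases for Efemp1 against 6911 for Fbln5, and which transcripts were expressed was not tested. Without division by length, mean CPM of Efemp1 and Fbln5 was 10.2 and 8.10 on the control diet and 15.2 and 14.8 on FFD.

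The share of each gene in the sum of CPM per kb rests on the same joined lengths and is given as a description. Efemp1 made up 53.2% ± 6.30 (SD, n = 12) of the sum on the control diet and 38.8% ± 6.82 on FFD. Mfap4 went from 8.40% ± 3.85 to 16% ± 5.45 and Eln from 1.71% ± 0.676 to 4.09% ± 1.16. Efemp2 went from 12.8% ± 3.28 to 16.1% ± 2.02. Shares of Fbln5 (12.3% ± 2.45 and 11.2% ± 2.42) and Fbln2 (4.11% ± 1.36 and 4.19% ± 0.803) lay within the spread between libraries.

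**Figure D2:**
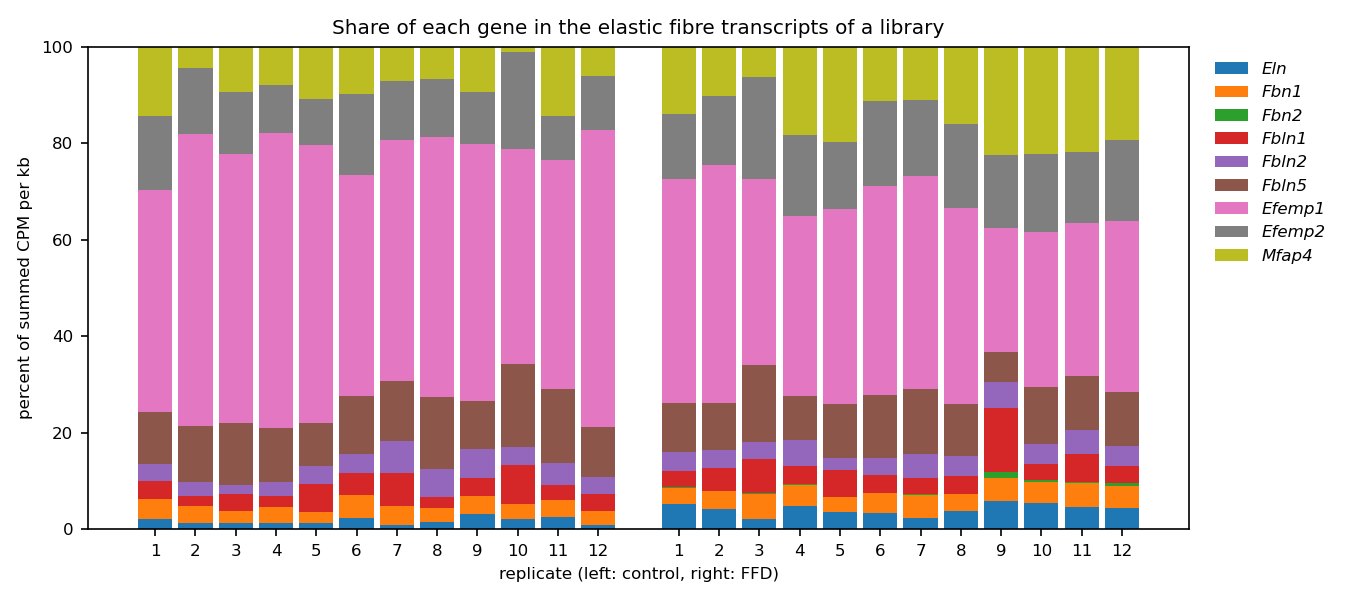
Share of each tested elastic fibre gene in the sum of their CPM per kb (vertical axis, percent) in each library, with control replicates on the left and FFD replicates on the right. Efemp1 takes 44.7% to 61.7% of the sum in the control libraries and 25.6% to 49.3% in the FFD libraries.

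A ratio of 2 genes within a library does not depend on the scaling of libraries, and 15 such ratios were compared between diets with two-sided permutation tests (100000 resamples, Benjamini-Hochberg over the 15 ratios, 0.5 counts added to each gene). Of these, 13 passed an adjusted p of 0.05. Efemp1 to Efemp2 fell by 0.83 on the log2 scale, from 1.19 ± 0.465 (SD, n = 12) on the control diet to 0.36 ± 0.33 on FFD, with 12 of 12 FFD libraries below the control median (permutation test, adjusted p = 0.000356). The log2 ratio to Eln differed by -1.42 for Fbln5 (adjusted p = 0.000225, permutation test), by -0.91 for Fbn1 (0.000795) and by -0.91 for Efemp2 (0.00197), so the ratio of each to Eln was lower on FFD. Within the libraries with Xist below 1000 counts the difference was -0.82 for Fbn1 (adjusted p = 0.0617, exact permutation test) and -0.90 for Efemp2 (0.062), and neither passed. Fbn2 to Fbn1 was higher by 1.93 (adjusted p = 0.000517, permutation test), in 12 of 12 FFD libraries above the control median. Fbn2 was at 0 in 8 control libraries, where the added counts set this ratio, and with Xist below 1000 counts the difference was 1.63 (adjusted p = 0.0649, exact permutation test). Fbln1 to Fbln2 differed by 0.22, with a raw p of 0.432 in the permutation test.

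Col1a1, which encodes the alpha 1 chain of type I collagen, the main fibrillar collagen of liver scars, rose more than most elastic fibre genes. Its level was 4.79 to 55.1 CPM on the control diet (median 8.42) and 34.4 to 214 CPM on FFD (median 99.4), a difference of 3.12 (SE 0.42, adjusted p = 4.09e-06, edgeR). The collagen genes Col1a2 and Col3a1 had 2.41 and 2.60, against 2.39 for Eln, and ratios to them were not tested. The ratio to Col1a1 was lower on FFD for 8 of 9 members, with 12 of 12 FFD libraries below the control median for each of the 8. These tests share 1 denominator. The median log2 fold change over all genes tested was -0.03, and a gene at that median would also have a lower ratio to Col1a1. The share of all genes with a lower ratio was not computed, so the count is not particular to these members. The difference in log2 ratio was -2.69 for Efemp1, the largest, -2.38 for Fbln5 and -2.16 for Fbln2. These had an adjusted p of 3.75e-05, from the smallest p that the 100000 resamples can give. It was -0.96 for Eln, the smallest of the 8 (adjusted p = 0.0029, permutation test), and -1.22 for Mfap4 (0.00197). With Xist below 1000 counts these were -1.07 (adjusted p = 0.0617, exact permutation test) and -0.81 (0.0974), and did not pass. It was -1.94 for Fbln1 (0.000356), -1.87 for Fbn1 (3.75e-05) and -1.87 for Efemp2 (6e-05). Fbn2 to Col1a1 differed by 0.06 (adjusted p = 0.891), a value that turned to -1.21 (adjusted p = 0.0063) with 2 counts added in place of 0.5.

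**Figure D3:**
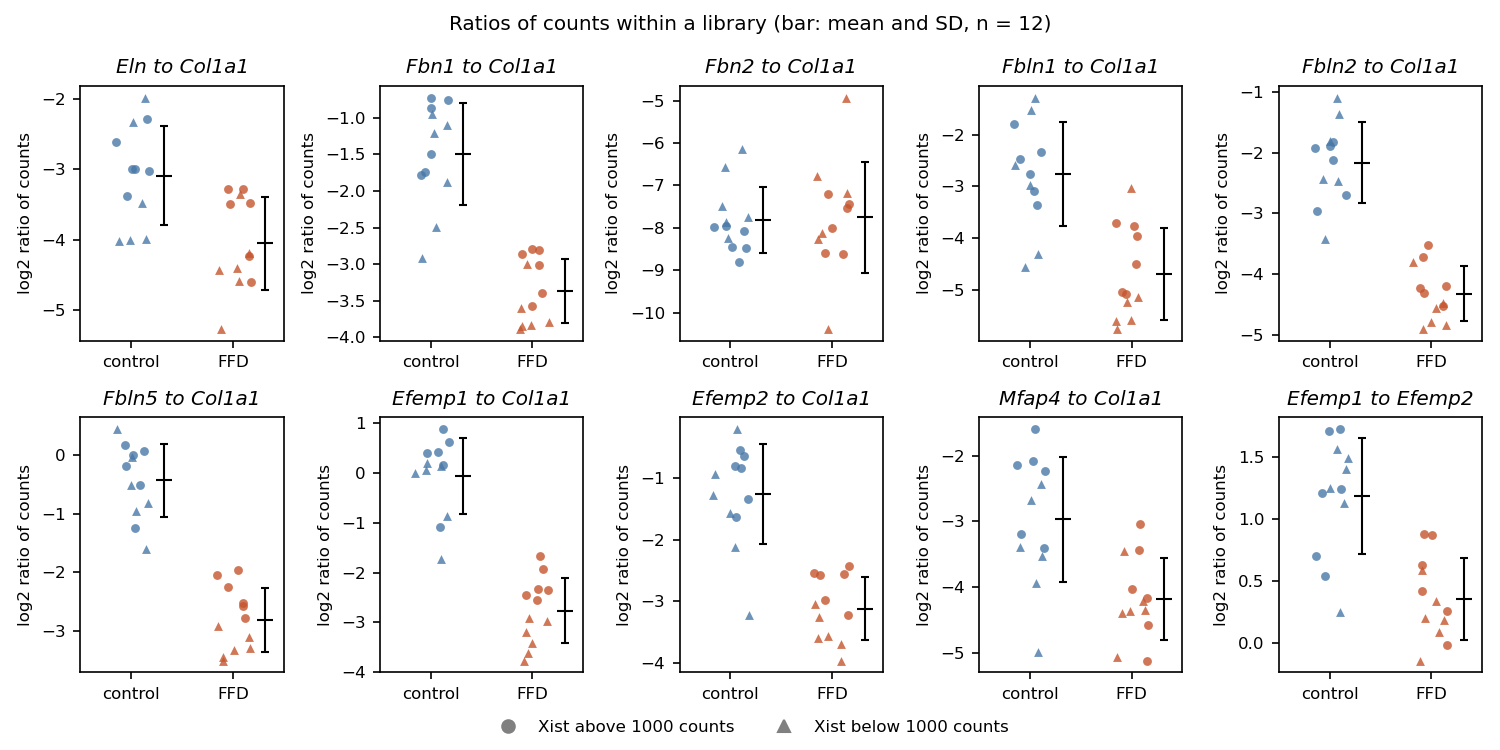
Log2 ratio of counts of each tested elastic fibre gene to Col1a1, and of Efemp1 to Efemp2, in each library (vertical axes), with the mean and SD of each diet (n = 12). Apart from Fbn2 to Col1a1, the FFD libraries lie below the control median in every panel.

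The libraries fell into sets that the labels do not name. Replicates 1 to 6 of both diets had 2664 to 6285 counts of Xist and 0 of the Y-linked Ddx3y, and replicates 7 to 12 had 0 to 3 of Xist and 448 to 1016 of Ddx3y. Each set held 6 libraries per diet. The sets were read from the counts and are not conditions of the labels.

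In the libraries with Xist below 1000 counts, 9 of 9 members were called higher on FFD, against 14.4% of all genes tested. In those with Xist above 1000 counts, 2 of 9 were, Eln and Fbn2, against 2.9% of all genes tested. Eln had a log2 fold change of 2.81 in the former and 1.83 (adjusted p = 0.00266, edgeR) in the latter. Fbn2 had 4.71 in the former and 3.97 (adjusted p = 0.00345) in the latter, fitted against 6 control counts in all and 1. Its call therefore carries little weight in the 9 of 9 and in the 2 of 9. Mfap4 had 2.66 and 1.05 (adjusted p = 0.0644), Fbln1 2.23 and 0.75 (0.108), and Fbn1 2.06 and 0.70 (0.0247), with the second value of each pair not called. The values were 2.04 and 0.79 (adjusted p = 0.0128) for Efemp2, 1.49 and 0.75 (0.059) for Fbln2, 1.18 and 0.51 (0.0922) for Fbln5 and 0.97 and 0.19 (0.627) for Efemp1.

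The test of the difference itself, an interaction of diet and set in edgeR, was passed by 1 of the 9 members. The diet effect on Efemp2 was larger with Xist below 1000 counts by 1.24 on the log2 scale (SE 0.29, adjusted p = 0.00673). In that set Efemp2 ran from 2.76 to 5.89 CPM on the control diet and from 11.4 to 22.9 CPM on FFD, without overlap. In the other set it ran from 3.83 to 7.80 CPM and from 6.34 to 11.3 CPM. The difference was 1.35 for Fbn1 (adjusted p = 0.0202), 1.6 for Mfap4 (0.132), 1.47 for Fbln1 (0.152) and 0.97 for Eln (0.344), none of which passed. It was 0.77 for Efemp1 (adjusted p = 0.15), 0.73 for Fbln2 (0.28) and 0.67 for Fbln5 (0.27). For Fbn2 it was 0.74 with an SE of 18.2 (adjusted p = 0.989, edgeR), so it could not be estimated from so few control counts. Over all genes tested, 2.58% were called larger with Xist below 1000 counts. With the replicate number as a block, the Efemp2 difference was 1.21 (adjusted p = 0.0182, edgeR) and 0 members passed. The Efemp2 call was also lost in 12 of 24 fits that left out 1 library, those without FFD replicates 1, 2, 4, 5, 9 and 10 and control replicates 3, 6, 7, 8, 9 and 12, with adjusted p of 0.0101 to 0.0161 (edgeR). Without control replicate 11 the number of members called was 4.

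**Figure D4:**
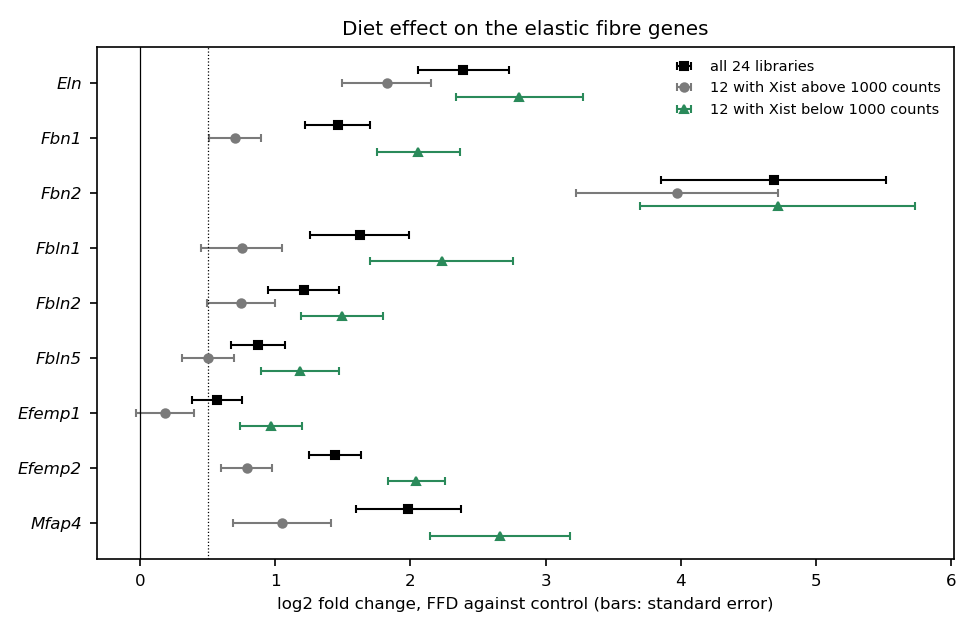
Log2 fold change of FFD against control (horizontal axis) for the 9 tested elastic fibre genes, with standard errors, in all 24 libraries (squares), in the 12 with Xist above 1000 counts (circles) and in the 12 with Xist below 1000 counts (triangles). The dotted line marks the fold threshold of 0.5. Each triangle lies to the right of the circle of the same gene, and the difference passed its test for Efemp2 alone, a call that the replicate block ended.

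Genes that act on elastic fibres were taken from a list of 45, all of which could be tested. On FFD 25 were called higher and 1 lower, 41 had a log2 fold change above 0, and the median was 1.03. Over all genes tested, 13.2% were called higher, 8457 of 17913 were above 0 and the median was -0.03. Within the library sets, 7 of the 45 were called higher with Xist above 1000 counts, against 2.9% of all genes tested. With Xist below 1000 counts 28 were, against 14.4% of all genes tested. The 7 were Loxl2, Ltbp3, Emilin1, Mmp2, Mmp12, Ctss and Timp1. Of the crosslinking enzymes 4 of 6 were called higher. The largest log2 fold change among them was that of Lox, the lysyl oxidase that joins tropoelastin and collagen chains. Lox ran from 0 to 0.963 CPM on the control diet (median 0.18) and from 1.12 to 5.2 CPM on FFD (median 2.06), without overlap, and was higher by 2.91 (SE 0.43, adjusted p = 1.37e-05, edgeR). Within the sets Lox had 1.78 with Xist above 1000 counts (adjusted p = 0.0153, not called) and 3.74 with Xist below. Loxl1, which acts on elastin in adult tissue, had 2.32, Loxl2 2.03 and Loxl3 0.90. Mean CPM was 3.82 on the control diet and 19.1 on FFD for Loxl1, against 0.32 and 2.53 for Lox. Loxl4 (0.31) and Atp7a, which loads these enzymes with copper (-0.49), were not called.

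Among microfibril and elastin-associated proteins 12 of 19 were called higher, against 13.2% of all genes tested. With Xist above 1000 counts 2 of the 19 were, Ltbp3 and Emilin1, against 2.9% of all genes tested. Mfap2, which encodes MAGP-1 and is a relative of Mfap5, had 0 to 0.6 CPM on the control diet and 0.149 to 6.21 CPM on FFD and was higher by 2.81 (SE 0.54, adjusted p = 0.000226, edgeR). Of the latent TGF-beta binding proteins, which tie the growth factor to microfibrils, Ltbp2 (2.34), Ltbp3 (1.86) and Ltbp1 (1.07) were called, and Ltbp4 was not (0.23, adjusted p = 0.167). The proteoglycans Vcan (2.67, from a mean of 0.136 CPM on the control diet), Bgn (1.21) and Dcn (0.65) were also called. So were the fibulin Fbln7 (1.11), the elastin-binding Emilin1 (1.22) and its relative Emilin2 (0.89). Adamtsl2 (1.68) and Adamts10 (0.80), which bind fibrillin-1, were called as well. Emilin2 was called in 16 of the 24 fits without 1 library and had an adjusted p of 0.0134 without FFD replicate 10. Hmcn1 (0.24), Thsd4 (1.03), Adamtsl3 (0.72), Adamtsl4 (0.53), Adamtsl5 (0.62) and Adamts17 (0.12) were not called.

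Of the 8 receptor subunits 2 were called higher, Itga8 (1.34) and Itgb5 (0.70), against 13.2% of all genes tested. Neither was called with Xist above 1000 counts. Itgav, the partner of Itgb5 in an integrin that binds fibrillin and fibulins, had -0.40 (adjusted p = 0.00162, edgeR) and did not reach the fold threshold. Of the 8 proteases that cut elastin or microfibrils 5 were called higher. Mmp12, macrophage elastase, had 0.149 to 11 CPM on the control diet (median 0.783) and 8.69 to 51.9 CPM on FFD (median 31.6) and was higher by 3.98 (SE 0.50, adjusted p = 2.04e-06, edgeR). Mmp2 (2.42), Ctsk (1.99) and Ctss (1.69) were the other three that held in every fit without 1 library. Elane, neutrophil elastase, was called at 4.18, with 17.7 CPM in FFD replicate 3 against 0.386 CPM in the next FFD library, and without replicate 3 it had 1.36 (adjusted p = 0.0523). Of the inhibitors Timp1 (3.62) and Timp2 (1.38) were called higher, Serpina1a, which encodes a circulating inhibitor of neutrophil elastase, was called lower (-0.79), and Timp3 (0.40) was not called. Of the 26 calls, 24 held in every fit without 1 library. Most of the 26 did not pass in the libraries with Xist above 1000 counts alone, where 2.9% of all genes were called higher.

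**Figure D5:**
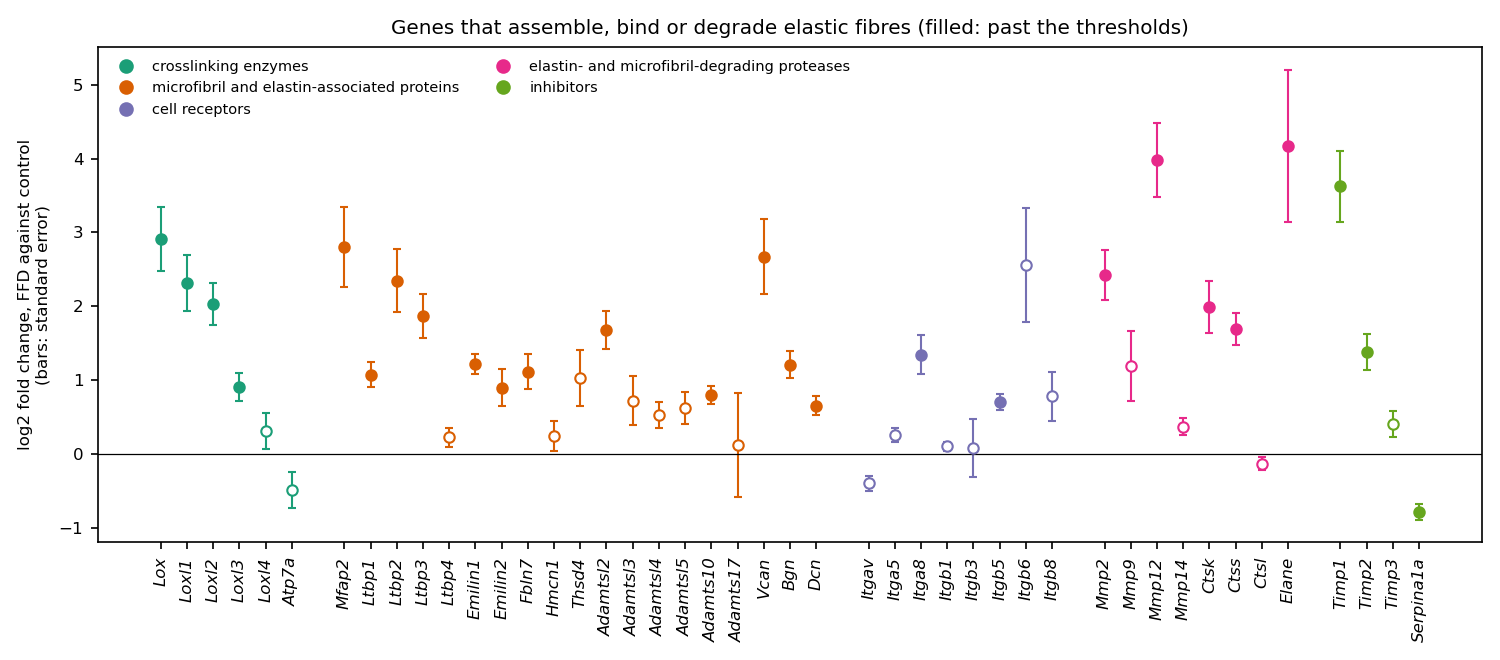
Log2 fold change of FFD against control (vertical axis) with standard errors for the 45 genes that assemble, bind or degrade elastic fibres, coloured by role. Filled points passed the thresholds, 25 above 0 and 1 below, Serpina1a.

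The genes most like each member across the 24 libraries were found by Pearson's r of log2(CPM + 1) after the mean of each diet within each set was subtracted, among genes with a mean of at least 10 counts. These correlations describe libraries that share depth and cell content, and carry no test. For Eln they were Loxl1 (0.89), Htra1 (0.86) and Mfap4 (0.86). For Fbn1 they were Olfml3 (0.93), Clcf1 (0.90) and Fblim1 (0.90), for Fbln5 Col1a2 (0.90), Il10ra (0.87) and Lum (0.87), and for Mfap4 Timp2 (0.90), Aebp1 (0.89) and Svep1 (0.86). Fbn2 was most like Cldn4 (0.95), a tight-junction gene of bile duct epithelium and one of the cholangiocyte markers above, then Trim46 (0.93) and Cldn6 (0.93). Fbln1 was most like Cyp2s1 (0.91), Ly6c1 (0.90) and Npdc1 (0.89), and Fbln2 like Kif3a (0.89), Fblim1 (0.87) and Adamts9 (0.87). Efemp1 was most like Pam (0.86), Pcdh7 (0.85) and Tgfbi (0.85), and Efemp2 like Mfge8 (0.88), Calm3 (0.83) and Rcn3 (0.83). FFD replicate 9 was the highest library for both Fbn2 and Fbln1. That library was the highest FFD library for 8 of the 9 tested members, and the highest library for Loxl1 and Timp2. No r was computed without it.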

How the data were processed

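Counts per Ensembl gene, whole numbers that the authors did not normalize, were deposited in 1 table for 24 libraries. The submitters' processing notes name bcl2fastq, STAR 2.7.3a and build mm10. The study's supplement names a TruSeq stranded mRNA kit, the exon quantification pipeline and PISCES, with a human reference. It names no counting program, annotation or strand setting for mouse. Symbols came from GENCODE M21 (51745 IDs matched; 4460 without a symbol held 0.0723% of the counts). CPM used TMM-scaled totals, with factors of 0.679 to 1.34, and 3 counts equal on average 0.148 CPM on FFD and 0.175 CPM on the control diet. A gene was tested if 12 or more libraries held 1 count or more of it, with edgeR 4.0.16 in R 4.3.3 (quasi-likelihood, diet as the only term), at the thresholds of the study's methods. SE was computed as the size of the log2 difference over the square root of F. Alternatives used DESeq2 1.42.0, limma 3.58.1 (voom), other scalings, filters and thresholds, the library sets, a replicate block and each library left out. No libraries of a diet were alike within sampling noise (chi-square over its degrees of freedom 9.47 or more). Whether any came from the same mouse was not tested. p-values measure the spread between libraries. The text names the 10 members, a list of 45 partners, 11 marker lists, Col1a1 and the 3 genes most like each member. Members and lists were chosen with earlier results of these data known.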

Additional observations from a re-analysis of the deposited data

Results flagged for a closer look

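Of the members and the 45 listed partners, 5 genes had a diet effect that differed between the library sets by the interaction test of edgeR at an adjusted p of at most 0.01, each larger with Xist below 1000 counts. Over all genes tested 728 of 17913 passed in either direction, and 2.58% were larger with Xist below. The difference in log2 fold change was 1.24 for Efemp2 (adjusted p = 0.00673), 0.88 for Emilin1 (0.00601), 1.32 for Adamtsl4 (0.00109), 0.78 for Mmp14 (0.00541) and 1.79 for Ctss, the elastin-degrading cathepsin S (0.000113). For Adamtsl4 and Mmp14 the diet effect over all 24 libraries was not called. The Efemp2 call was lost with the replicate block (adjusted p = 0.0182, edgeR) and in 12 of 24 fits without 1 library. The sets are not conditions of the labels, and what sets them apart beyond Xist and Ddx3y was not tested.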

How the results depend on the processing

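The 8 called members stayed past both thresholds in every fit to both library sets that tested them, including each fit without 1 library, where 8 to 9 members were called. edgeR's default filter removed Fbn2, and requiring 10 counts in each library removed Eln, Fbn2 and Mfap4. In the libraries with Xist above 1000 counts 2 members were called, Eln and Fbn2, the latter against 1 control count in all. Over all genes, 2372 were called higher and 894 lower. Library totals alone gave 3827 and 226, moving the median log2 fold change from -0.03 to 0.26 and the share of higher calls from 72.6% to 94.4%. The 10-count filter gave 1226 higher. The libraries with Xist above 1000 counts gave 520 and 158, and those below gave 1431 lower. An adjusted p of 0.05 with no fold threshold gave 3709 and 3388, and a log2 fold change over 1 gave 216 lower. Fits without 1 library gave 2188 to 2468 higher and 700 to 995 lower. The cause of these changes was not tested.

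The number of members whose diet effect differed between sets, 1 in the analysis as reported, was 2 with DESeq2 and 2 with library totals (Efemp2 and Fbn1), and 0 to 4 without 1 library. For the Fbn2 difference in log2 fold change between library sets, fits without 1 library gave -0.45 to 1.84, with -0.23 without FFD replicate 9. The ratio of Fbn2 to Col1a1 was -1.21 with 2 counts added, -0.27 with Xist below 1000 counts, -0.19 with FFD replicate 9 and control replicate 11 left out (chosen after seeing the data), and -0.19 to 0.30 without 1 library. For it, -0.0274 came without FFD replicate 12 and -0.0285 without control replicate 3. Of the 15 ratios, 8 passed with Xist below 1000 counts, and those lost were Eln and Mfap4 to Col1a1, Fbn1 and Efemp2 to Eln, and Fbn2 to Fbn1. There, 6 libraries a diet allow a smallest exact p of 0.00216.

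The labels do not say whether replicate numbers pair libraries, and they were not taken to. The correlation of same-numbered libraries was 0.155 to 0.541 but -0.0935 for number 9. Same-numbered libraries also share a library set, and differently numbered ones were not compared, so these values cannot decide on pairing. The replicate block gave 2063 higher and 844 lower genes, 8 called members and 0 that differed between sets (Efemp2 1.21, adjusted p = 0.0182, edgeR).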
